A study of Homo sapiens with 8 samples.

Results

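Of the 10436 gene names with at least 1 CPM (counts per 1000000 counts on genes) in every KDM3B-knockdown library, 34 were higher in the knockdown both without and with all-trans retinoic acid (ATRA). A gene belonged to the set when, without ATRA and again with ATRA, its lower CPM in the 2 shKDM3B libraries was at least 1.5 times its higher CPM in the 2 shNC control libraries, names of unnamed genomic clones being left out. The 34 genes made up 0.326% of the names over the CPM minimum and came from 37526 names listed for all 8 libraries. Without ATRA 117 names (1.12%) met the fold rule and with ATRA 221 (2.12%), so that the shared genes were 29.1% of the first group and 15.4% of the second. Because the set was picked on the knockdown difference itself, this difference is described for its members and not tested, and the difference made by ATRA, which the rule did not use, is tested.

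The libraries came from NB4 cells, a line derived from acute promyelocytic leukemia (APL) in which the fusion protein PML/RARα is expressed. The cells were stably transduced with a lentiviral pLVX-shRNA2-puro vector, which in the shKDM3B groups carried a short hairpin RNA against KDM3B and in the shNC groups was labelled as empty and described in the methods as a scrambled hairpin. Each of the groups shNC, shKDM3B, shNC+ATRA and shKDM3B+ATRA had 2 libraries, and the treated groups received 1 µM ATRA for a time given in the labels as 24 or 48 hours, without saying which. It is not stated which of the KDM3B hairpins was used or whether the replicates were separate cultures, so that p-values measure the spread between these libraries, which may be technical. RNA of whole cultures was sequenced, and a lower level may mean fewer cells of a type or less RNA per cell, which cannot be told apart.

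KDM3B removes methyl groups from lysine 9 of histone H3, a mark of silent chromatin. In APL, PML/RARα holds the cells at the promyelocyte stage, where the genes of the azurophil (primary) granules are strongly transcribed, and ATRA releases this block and drives the cells toward neutrophils while the promyelocyte genes are switched off. Genes of early blood progenitors, such as LMO2, are also known to decline as granulocytes mature.

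KDM3B itself, the target of the hairpin, was at 189 CPM in both shNC libraries and at 76.4 and 85.0 CPM in the shKDM3B libraries. With ATRA it was at 190 and 113 CPM in the controls and at 51.3 and 55.3 CPM in the knockdown. The log2 fold change was -1.21 (standard error (SE) 0.15, adjusted p = 0.068) without ATRA and -1.53 (SE 0.29, adjusted p = 0.502) with ATRA by the quasi-likelihood test of edgeR, adjusted by the Benjamini-Hochberg method. Between 19444480 and 33017787 counts fell on genes in the untreated libraries and between 9708739 and 16882512 in the treated ones. The share of uniquely aligned reads that the counting assigned to no gene was 8.49% to 9.62% in the untreated libraries. It was 9.36% in shNC+ATRA replicate 1, but 50.02% in shNC+ATRA replicate 2 and 51.4% and 51.0% in the shKDM3B+ATRA libraries. Where these reads lie was not examined. For the knockdown with ATRA, the only comparison within one side of this split was with shNC+ATRA replicate 2, and for ATRA in the shNC cells with shNC+ATRA replicate 1, so values within these libraries are given for the set and for the members called with ATRA in the shNC cells, and the levels of most other members are given library by library. In the shKDM3B cells the split coincided with the treatment, and their effects cannot be told apart. The lists of gene names also differed between untreated and treated libraries, which coincides with ATRA in both cell lines. The 10 promyelocyte markers were led by MPO, with ELANE at 0 in the treated libraries, while the erythroid markers summed to at most 0.721 CPM, in shKDM3B+ATRA. The 7 kidney epithelial and stromal markers, led by EPCAM, summed to 23.1 to 25.1 CPM in shNC and 19.9 to 22.7 in shKDM3B. With ATRA these sums were 23.9 to 27.3 CPM in shNC and 30.1 to 35.9 in shKDM3B, and their part in the results was not tested.

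All 34 genes were found in GENCODE v44 on hg38, and 31 of them code for proteins. Of the 34, 28 had promoter windows in RefSeq (GRCh38.p14), 49 in all, each running from 250 bases before to 50 bases after a transcript start. A few windows are shown, those of MAGEB2, CHST4 and HDAC9 because these were the members with letters of AP-1, and that of SATB1 because it was the only one with letters of PU.1, both being factors of myeloid cells. Distances run from the first of the letters to the transcript start. Capitals mark matches on either strand to the letters searched, TGANTCA for AP-1, GAGGAAGT for PU.1, TAACNG for MYB and AGGTCA for nuclear receptors. The MAGEB2 window lies at chrX:30215313-30215612 on the plus strand and has its AP-1 letters 58 bases before the start. The CHST4 window lies at chr16:71526176-71526475 on the plus strand, with the AP-1 letters 6 bases before the start and MYB letters at 168 and 53 bases before it. The HDAC9 window at chr7:18495460-18495759 on the plus strand belongs to an internal start of the gene, with AP-1 letters 28 bases and nuclear receptor letters 91 bases before it. The SATB1 window at chr3:18445543-18445842 on the minus strand has PU.1 letters 60 bases before the start.
MAGEB2: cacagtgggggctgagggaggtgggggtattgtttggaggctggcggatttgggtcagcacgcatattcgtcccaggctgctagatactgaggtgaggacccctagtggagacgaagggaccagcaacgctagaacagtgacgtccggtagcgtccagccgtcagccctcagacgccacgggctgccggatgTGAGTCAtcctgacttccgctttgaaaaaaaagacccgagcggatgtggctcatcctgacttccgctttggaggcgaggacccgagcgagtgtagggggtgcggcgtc
CHST4: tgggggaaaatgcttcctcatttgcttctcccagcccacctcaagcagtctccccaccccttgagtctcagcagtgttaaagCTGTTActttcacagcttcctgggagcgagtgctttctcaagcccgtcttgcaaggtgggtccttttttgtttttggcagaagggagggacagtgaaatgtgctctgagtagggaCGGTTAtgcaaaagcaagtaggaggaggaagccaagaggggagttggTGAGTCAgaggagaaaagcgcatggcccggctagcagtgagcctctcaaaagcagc
HDAC9: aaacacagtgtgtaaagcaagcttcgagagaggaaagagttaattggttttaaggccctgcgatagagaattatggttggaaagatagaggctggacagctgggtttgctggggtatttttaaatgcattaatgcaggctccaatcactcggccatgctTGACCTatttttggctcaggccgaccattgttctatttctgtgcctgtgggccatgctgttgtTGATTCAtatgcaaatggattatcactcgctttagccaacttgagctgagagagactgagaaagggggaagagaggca
SATB1: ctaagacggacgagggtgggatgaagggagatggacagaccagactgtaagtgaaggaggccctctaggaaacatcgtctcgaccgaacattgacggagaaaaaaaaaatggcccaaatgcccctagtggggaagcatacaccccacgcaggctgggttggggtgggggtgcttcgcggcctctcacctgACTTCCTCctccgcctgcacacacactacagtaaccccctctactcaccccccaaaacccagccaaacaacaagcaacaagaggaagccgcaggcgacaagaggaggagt

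The shares of member windows with each set of letters are set against those of all 35116 RefSeq windows, without a test. AP-1 letters stood in 4 of the 49 member windows (8.16%, against 7.71% of all windows) and PU.1 letters in 1 (2.04%, against 2.59%). MYB letters stood in 8 (16.3%, against 20.8%) and the nuclear receptor letters in 11 (22.4%, against 13.8%), the latter in windows of CHST4, HDAC9, HSPA4L, ILDR2, MAN2A1, PCDHGB2, SATB1 and TMEM99. The E-box CACGTG was in 5 member windows (10.2%, against 7.26%), the antioxidant element TGACNNNGC in 4 (8.16%, against 13.3%) and the cAMP element TGACGTCA in 0 (against 1.85%). Windows of 1 gene can overlap, so they are not independent. The median GC content was 60.7% in the member windows and 58.7% in all windows, with 21 and 14 CpG dinucleotides.

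The members had longer transcripts at the median than other expressed genes. Their canonical transcripts had a median of 4767 bases, against 3191 bases for the 11271 annotated names among those tested in both knockdown fits. The 3′ untranslated region had a median of 2872 bases in the 32 members with a value, TRGJP1 being entered with 0 bases, against 1330 bases. The gene span had a median of 75780.5 bases, against 31483 bases, and the GC content of the transcript was 43.5%, against 47.9%. Exons of 9 members (26.5%, against 43.8%) overlapped exons on the opposite strand, among them DPYD with DPYD-AS1, HMGA2 with HMGA2-AS1 and TMEM99 with KRT10. As the counting is not stated to use strand, reads of these partners cannot be told apart, although the overlap covered at most 6.29% of the exon length of a member (HSPA4L). These lengths are descriptions of the set and were not tested.

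In the fitted comparisons, the median log2 fold change of the 34 genes between shKDM3B and shNC was 1.14 without ATRA and 1.31 with ATRA, where the medians over all genes tested were 0.00 and 0.03. With MAGEB2 and, under ATRA, HDAC9 set against 3 counts in each control library, as these genes had at most 3 there, the medians were also 1.14 and 1.31, both genes staying in the upper part of the set. At an unadjusted P-value under 0.05 and a fold change of at least 1.5, all 34 were higher without ATRA (3.48% of all genes tested) and 28 with ATRA (2.42%), counts that the rule itself largely fixes. After adjustment 0 of all genes were higher in either edgeR comparison and 3 (0.0217%) were lower without ATRA, where 1411 and 1383 genes had an unadjusted P-value under 0.05 and DESeq2 called 156 and 123 genes higher. The ratio of group means was larger with ATRA than without for 27 members and smaller for 7. The fitted log2 fold change was larger for 23 and smaller for 11, so the counts depend on the scaling. They were neither tested nor set against all genes. Against shNC+ATRA replicate 2 alone, the shKDM3B+ATRA mean was 1.57 times (GFPT1) or more the control level, with a median of 2.40 times, where the rule itself sets a least value of 1.5 for either control library.

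**Figure D1:**
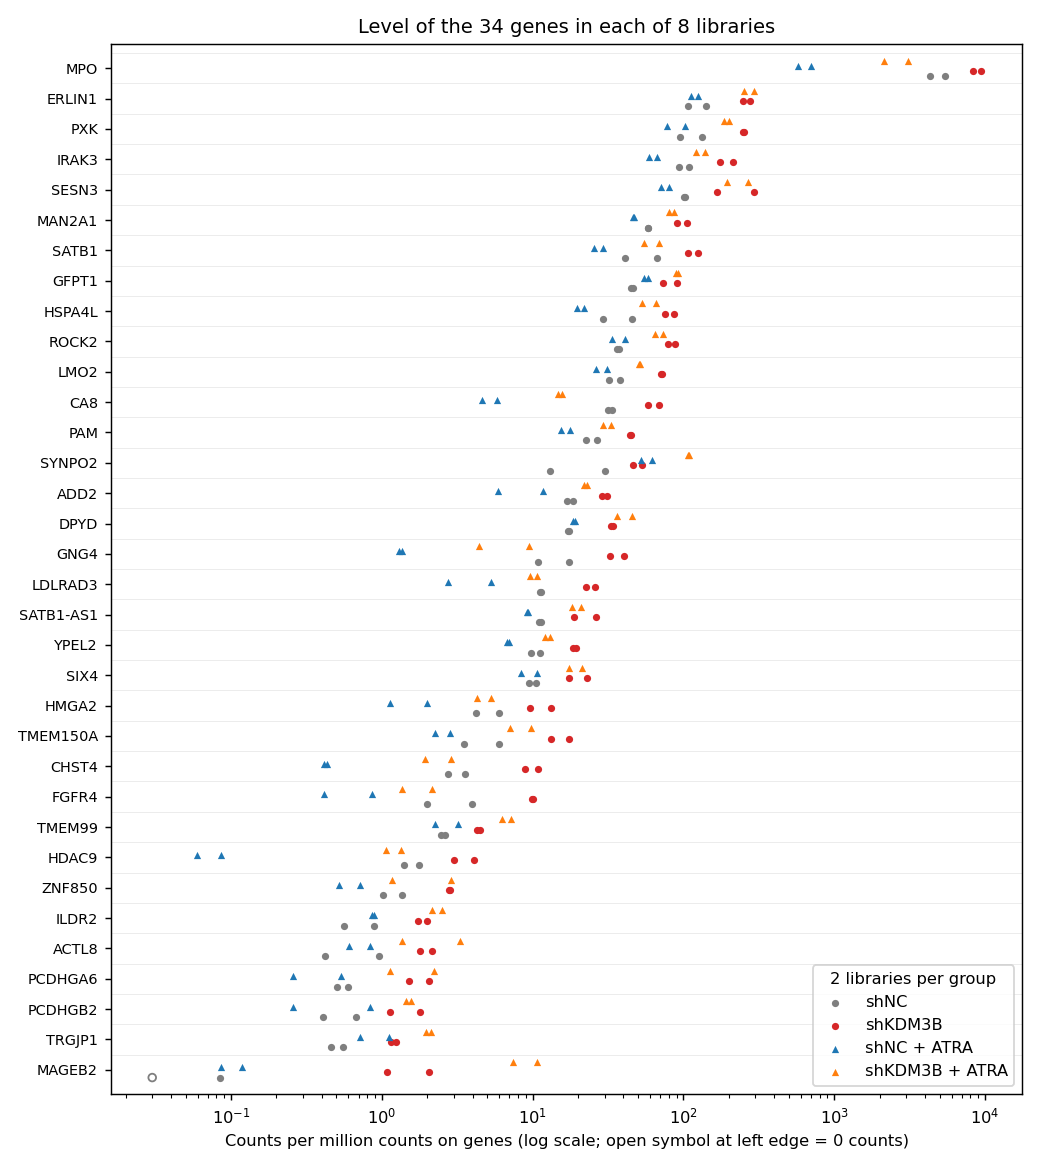
Level of each of the 34 genes in each of the 8 libraries, in CPM on a log axis, ordered by the mean of the shNC libraries. Circles are untreated and triangles ATRA-treated libraries; the open circle at the left edge stands for 0 counts of MAGEB2, and in every row the shKDM3B symbols lie to the right of the shNC symbols of the same treatment.

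**Figure D2:**
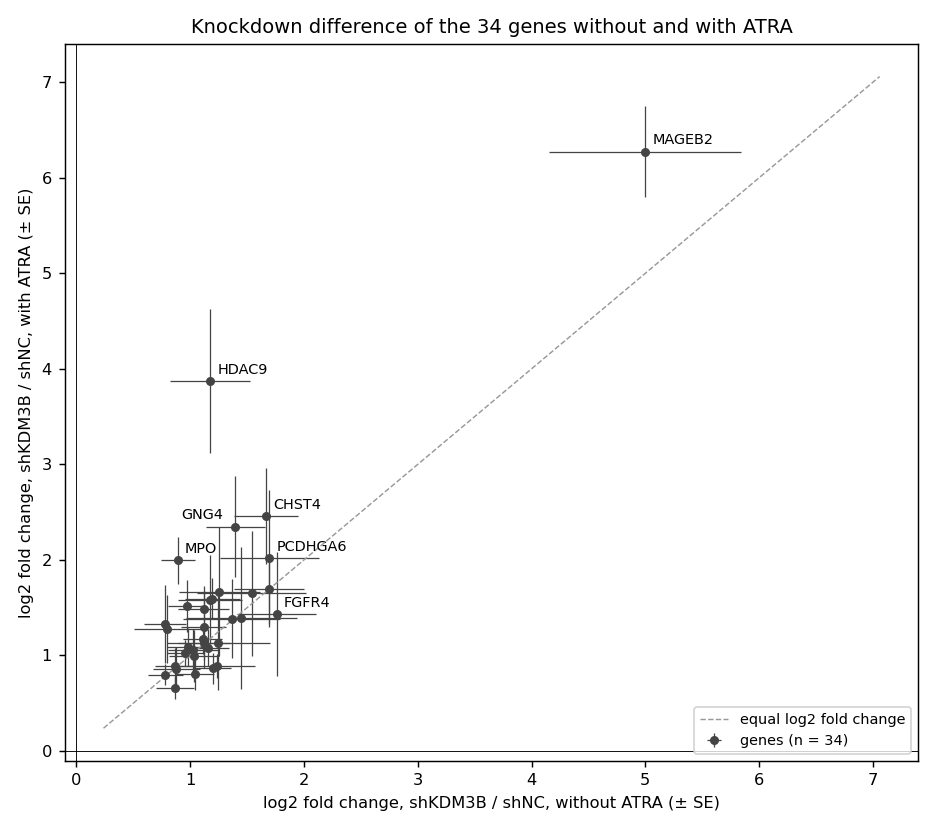
Fitted log2 fold change of shKDM3B over shNC without ATRA (horizontal) and with ATRA (vertical) for the 34 genes, with standard errors; the dashed line marks equal values. MAGEB2 lies farthest out, followed by HDAC9 on the vertical axis; both values of MAGEB2 and the vertical value of HDAC9 depend on the prior count, as the controls had at most 3 counts in a library.

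Just inside the fold limit lay SYNPO2, MPO and MAN2A1, each with a ratio of 1.55 of the lower shKDM3B to the higher shNC level in the tighter of the 2 comparisons. MPO and SYNPO2 left the set with upper-quartile scaling and GFPT1 with TMM scaling. Just outside lay PROK2 with a ratio of 1.496, GALNT3 with 1.495 and SLC4A7 with 1.47. C1orf226, PLA2G3 and CA2 met both folds but had a lowest shKDM3B level of 0.999, 0.927 and 0.775 CPM, under the minimum of 1 CPM. The widest margins were those of MAGEB2, with a ratio of 7.10 after raising its controls to 3 counts, CHST4 with 2.51, TMEM150A with 2.20 and PCDHGA6 with 2.13.

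7 of the 34 members were grouped by role under transcription or chromatin. LMO2, a LIM-domain adaptor of early blood progenitors, was at 32.3 and 38.2 CPM in the shNC libraries, 72.0 and 71.1 in shKDM3B, 26.4 and 31.1 in shNC+ATRA and 50.8 and 51.9 in shKDM3B+ATRA. The treated knockdown thus stayed above the untreated control in both libraries. SATB1, a chromatin organiser of lymphoid and progenitor cells, was at 41.1 and 66.7 CPM in shNC, 124 and 108 in shKDM3B, 29.1 and 25.6 in shNC+ATRA and 68.3 and 54.5 in shKDM3B+ATRA. Here the treated knockdown overlapped the untreated control. SATB1-AS1, a long noncoding RNA that starts beside SATB1 on the opposite strand and whose exons overlap none of SATB1, was at 11.01 and 11.37 CPM in shNC, 26.3 and 18.8 in shKDM3B, 9.36 and 9.12 in shNC+ATRA and 21.0 and 18.3 in shKDM3B+ATRA. Both RNAs of this locus, at chr3:18345377-18445621 and chr3:18445024-18923280, were close to 2 times higher in the knockdown under both treatments, with ratios of the means of 2.15 and 2.24 for SATB1 and of 2.02 and 2.13 for SATB1-AS1.

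HMGA2, an architectural DNA-binding protein of fetal tissues and tumours and a target of the let-7 microRNAs, was at 4.21 and 5.96 CPM in shNC, 13.2 and 9.66 in shKDM3B, 1.13 and 1.98 in shNC+ATRA and 5.25 and 4.26 in shKDM3B+ATRA. Its level in the treated knockdown lay in the range of the untreated control. HDAC9, a class IIa histone deacetylase, was at 1.78 and 1.39 CPM in shNC and 4.06 and 3.03 in shKDM3B. With ATRA it had 1 count in each shNC library and 13 and 11 counts in the shKDM3B libraries, and the ratio of the pooled CPM was 17.1 (95% exact interval 4.24 to 149). As no molecular identifiers were used, such an interval holds for counting error alone. It is no test, because the rule picked the gene on this ratio. SIX4, a homeobox factor, was at 9.49 to 10.4 CPM in shNC and 17.5 to 22.8 in shKDM3B, and at 8.35 to 10.7 and 17.5 to 21.2 CPM with ATRA, so that the ranges with and without ATRA overlapped in either cell line. ZNF850, a zinc finger gene, stayed under 3 CPM in every library.

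The lists around these genes are counted without the members, which the rule chose for being higher. The let-7 and LIN28 list had 2 of 10 tested genes past the unadjusted criteria without ATRA (TRIM71 and E2F5) and 2 of 9 with ATRA (TRIM71 and LIN28B), all higher in the knockdown, where 3.48% and 2.42% of all genes were higher. TRIM71, a stem cell ubiquitin ligase repressed by let-7, had log2 fold changes of 0.60 (SE 0.15) and 0.95 (SE 0.15), and LIN28B, which blocks let-7 processing, of 0.56 (SE 0.19) and 0.89 (SE 0.16). In the class IIa deacetylase list, 0 of 6 tested genes other than HDAC9 were past these edgeR criteria in either comparison. In the list of 16 progenitor transcription factors, MYB, the master regulator of immature blood cells, was past them in both (log2 fold change 0.74, SE 0.21, and 0.94, SE 0.23), of 11 and 12 tested besides LMO2. None of these genes was below an adjusted p of 0.05 in edgeR, and the medians without members were 0.19 and 0.34 for let-7 and LIN28, 0.09 and 0.19 for the deacetylases and 0.03 and -0.0048 for the progenitor factors.

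Among the signalling and membrane proteins, IRAK3, an inactive kinase that restrains Toll-like receptor signalling, was at 93.7 and 109 CPM in shNC, 214 and 174 in shKDM3B, 67.1 and 58.8 in shNC+ATRA and 139 and 122 in shKDM3B+ATRA. ROCK2, a kinase that acts on the actin cytoskeleton, was at 36.3 and 37.4 CPM in shNC, 88.4 and 78.7 in shKDM3B, 40.8 and 33.4 in shNC+ATRA and 73.3 and 64.3 in shKDM3B+ATRA. For both, the treated knockdown stayed above the untreated control. PXK, a PX-domain protein of endosomal traffic, was at 94.3 and 133 CPM in shNC, 249 and 251 in shKDM3B, 77.4 and 102 in shNC+ATRA and 201 and 186 in shKDM3B+ATRA. LDLRAD3, a member of the LDL receptor family, was at 11.2 and 11.4 CPM in shNC, 22.5 and 25.9 in shKDM3B, 5.33 and 2.75 in shNC+ATRA and 10.6 and 9.59 in shKDM3B+ATRA. Its treated knockdown libraries lay below the untreated controls.

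GNG4, a gamma subunit of heterotrimeric G proteins, was at 10.9 and 17.3 CPM in shNC, 32.5 and 40.6 in shKDM3B, 1.36 and 1.29 in shNC+ATRA and 4.43 and 9.40 in shKDM3B+ATRA. Both effects were wide in this gene, the treated control lying lowest and the untreated knockdown highest with no overlap between any groups. FGFR4, a fibroblast growth factor receptor, was at 1.98 and 3.93 CPM in shNC, 9.87 and 9.99 in shKDM3B, 0.415 and 0.860 in shNC+ATRA and 2.16 and 1.36 in shKDM3B+ATRA. With ATRA 1 knockdown library lay between the untreated controls and the other below both. In the list of SOCS proteins and cytokine feedback, 3 of 12 tested genes other than IRAK3 were past the unadjusted criteria without ATRA and 2 of 13 with ATRA (3.48% and 2.42% higher over all genes), all higher, with medians of 0.20 and 0.26. SOCS2 and IL13RA1 were among them in both. In the LDL receptor family 3 of 11 genes other than LDLRAD3 were higher and 1 lower (3.53% lower over all genes) without ATRA and 1 of 11 higher with ATRA (medians 0.55 and 0.04), with no gene in both.

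MPO, the myeloperoxidase of azurophil granules and the classical marker of the promyelocyte, had the highest CPM per kilobase of exons of the members in shNC (1097, against 35.3 for ERLIN1). It lies at chr17:58269855-58280935 on the minus strand. Its level was 4329 and 5383 CPM in shNC, 8348 and 9395 in shKDM3B, 705 and 575 in shNC+ATRA and 3059 and 2142 in shKDM3B+ATRA. The fitted log2 fold change between shKDM3B and shNC was 0.89 (SE 0.15) without ATRA and 1.995 (SE 0.24) with ATRA. The treated knockdown stood above the treated control by 4.06 times (4.53 times against replicate 2 alone) but below both untreated controls. MPO made up 84.2% to 84.4% of the summed CPM of the 34 genes in shNC and 44.3% to 50.1% in shNC+ATRA, and the sum without it was 813 and 992 CPM in shNC, 2015 and 1741 in shKDM3B, 703 and 723 in shNC+ATRA and 1686 and 1466 in shKDM3B+ATRA. Without MPO every knockdown sum exceeded every control sum, whereas with MPO both treated knockdown sums, 4745 and 3608 CPM, lay below the untreated control sums of 5141 and 6374 CPM.

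Of the azurophil granule genes other than MPO, 14 were tested without ATRA, of which 3 were past the unadjusted criteria for higher and 1 for lower (3.48% and 3.53% of all genes), with a median of 0.14. With ATRA 13 were tested, of which 2 were higher and 2 lower (2.42% and 4.37% of all genes), with a median of -0.29. RNASE2, the eosinophil-derived neurotoxin, was on the lower side in both, with log2 fold changes of -0.79 (SE 0.18) and -1.25 (SE 0.18), and BPI, the bactericidal permeability-increasing protein, with ATRA (-0.59, SE 0.12). DEFA3 and DEFA4, neutrophil defensins, had log2 fold changes of 1.30 (SE 0.35) and 1.08 (SE 0.34) without ATRA and of -0.56 (SE 0.55) and -0.31 (SE 0.49) with ATRA. MS4A3, a promyelocyte surface protein, and the serine protease gene PRSS57 had 0.12 (SE 0.16) and 0.49 (SE 0.16) without ATRA and 1.32 (SE 0.30) and 1.33 (SE 0.27) with ATRA, while CTSG, the granule protease cathepsin G, had 0.33 (SE 0.15) and -0.79 (SE 0.47). In the promyelocyte marker list without MPO, ANPEP was higher of 8 tested without ATRA and CSF3R lower of 6 tested with ATRA (medians 0.11 and -0.39). The 10 markers, MPO included, summed to 5394 to 6448 CPM in shNC, 9550 to 10943 in shKDM3B, 1383 to 1837 in shNC+ATRA and 2961 to 3842 in shKDM3B+ATRA. MPO, which the rule chose for being higher, led these sums in every group. The other 9 markers summed to 1065 CPM in both shNC libraries and 1202 and 1548 in shKDM3B, without overlap. This gap rested on ANPEP, at 467 and 471 CPM in shNC and 633 and 940 in shKDM3B. CSF3R went the other way, at 67.6 and 65.9 CPM in shNC and 54.8 and 47.8 in shKDM3B. With ATRA the 9 markers summed to 1132 and 809 CPM in shNC and 784 and 820 in shKDM3B, with overlap. The part of these markers in the results was not tested.

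5 further members work in the secretory pathway. MAN2A1, the Golgi mannosidase of N-glycan processing, was at 58.4 and 57.8 CPM in shNC, 106 and 90.6 in shKDM3B, 47.2 and 46.3 in shNC+ATRA and 86.1 and 80.0 in shKDM3B+ATRA. GFPT1, the rate-limiting enzyme of the hexosamine pathway that feeds glycosylation, was at 46.3 and 44.8 CPM in shNC, 90.5 and 73.6 in shKDM3B, 54.4 and 57.9 in shNC+ATRA and 91.7 and 89.8 in shKDM3B+ATRA. In both genes the treated knockdown lay above either control group. CHST4, a Golgi sulfotransferase of L-selectin ligands, was at 2.74 and 3.55 CPM in shNC, 8.90 and 10.8 in shKDM3B, 0.415 and 0.430 in shNC+ATRA and 2.88 and 1.94 in shKDM3B+ATRA, with the treated knockdown overlapping the untreated control. ERLIN1, an endoplasmic reticulum protein that helps to degrade the inositol trisphosphate receptor, was at 106 and 140 CPM in shNC, 276 and 249 in shKDM3B, 113 and 125 in shNC+ATRA and 296 and 250 in shKDM3B+ATRA. Its controls overlapped each other across treatments, as did its knockdown libraries. PAM, which amidates peptides in secretory granules, ranged from 15.3 to 26.8 CPM in the controls and from 29.4 to 44.8 CPM in the knockdown.

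In the list of Golgi glycosylation and sulfation enzymes, 34 genes other than CHST4, MAN2A1 and GFPT1 were tested. Without ATRA 6 were past the unadjusted criteria for higher and 0 for lower (3.48% and 3.53% of all genes), and with ATRA 7 were higher and 2 lower (2.42% and 4.37%). The medians of the 34 were 0.24 and 0.31. Higher in both were GALNT3, which starts O-glycosylation (0.81, SE 0.21, and 0.98, SE 0.19), GLCE, an epimerase of heparan sulfate (0.83, SE 0.22, and 0.60, SE 0.19), and NEU3, a sialidase (0.64, SE 0.16, and 0.72, SE 0.24). FUT7, a fucosyltransferase of selectin ligands, was on the lower side with ATRA (0.04, SE 0.21, without and -1.84, SE 0.36, with ATRA). No gene of the list had an adjusted p under 0.05 in edgeR.

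Of the genes of metabolism and stress, SESN3, a sestrin that restrains mTORC1 and is induced by FOXO factors, was at 100 and 102 CPM in shNC, 292 and 166 in shKDM3B, 70.9 and 79.8 in shNC+ATRA and 270 and 195 in shKDM3B+ATRA. The knockdown libraries were uneven within each pair, yet each lay above all 4 control libraries. DPYD, the first enzyme of pyrimidine breakdown, was at 17.1 and 17.4 CPM in shNC, 32.9 and 34.3 in shKDM3B, 19.2 and 18.4 in shNC+ATRA and 45.5 and 36.1 in shKDM3B+ATRA. HSPA4L, a chaperone of the HSP110 family, was at 29.5 and 45.7 CPM in shNC, 86.4 and 74.96 in shKDM3B, 19.6 and 21.9 in shNC+ATRA and 66.0 and 52.8 in shKDM3B+ATRA. CA8, a catalytically inactive relative of the carbonic anhydrases that binds the inositol trisphosphate receptor, was at 31.7 and 33.8 CPM in shNC, 68.3 and 58.1 in shKDM3B, 4.62 and 5.76 in shNC+ATRA and 15.8 and 14.7 in shKDM3B+ATRA. For CA8 no groups overlapped, and the treated knockdown lay below the untreated control. In the list of sestrins and FOXO targets, 3 of 12 tested genes other than SESN3 and YPEL2 were past the unadjusted criteria without ATRA and 2 of 11 with ATRA, all higher (3.48% and 2.42% of all genes), with medians of 0.23 and -0.09. KLF3, a repressor of the Krüppel-like family (0.59, SE 0.17, and 1.20, SE 0.26), was among them in both.

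SYNPO2, an actin-bundling protein best known from muscle, was the only member that was higher with ATRA in both cell lines by the test. It was at 13.0 and 30.0 CPM in shNC, 46.4 and 53.4 in shKDM3B, 61.8 and 52.7 in shNC+ATRA and 109 and 107 in shKDM3B+ATRA. The untreated knockdown overlapped the treated control, and the treated knockdown was highest. ADD2, the beta subunit of adducin in the membrane skeleton, was at 16.9 and 18.5 CPM in shNC, 31.1 and 28.9 in shKDM3B, 11.7 and 5.85 in shNC+ATRA and 22.9 and 21.9 in shKDM3B+ATRA. The protocadherins PCDHGA6 and PCDHGB2 stayed at 0.258 to 0.829 CPM in the controls and 1.13 to 2.23 CPM in the knockdown. They share 27.5% and 45.2% of their exon length with 21 other genes of the gamma cluster, and the assignment of their reads is uncertain.

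MAGEB2, a cancer-testis antigen gene on the X chromosome at chrX:30215563-30220089, was nearly silent in the control cells. It had 0 and 2 counts in shNC and 21 and 68 in shKDM3B, where its level was 1.08 and 2.06 CPM. With ATRA it had 2 and 1 counts in the controls and 103 and 76 in the knockdown, at 10.6 and 7.37 CPM. The ratio of the pooled CPM was 36.8 (95% exact interval 9.89 to 308) without ATRA and 84.9 (28.6 to 416) with ATRA. As the rule picked the gene on this difference, these intervals describe counting error and test nothing. Of the 18 genes in the list of MAGE and other cancer-testis genes, MAGEB2 was the only one with enough counts to be tested. ACTL8, an actin-like gene that is also mainly expressed in testis, was at 0.423 to 0.964 CPM in the controls of both treatments and 1.36 to 3.30 CPM in the knockdown.

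The remaining members are a mixed group. TMEM150A, a membrane protein that takes part in phosphoinositide synthesis at the plasma membrane, was at 3.50 and 6.002 CPM in shNC, 17.4 and 13.2 in shKDM3B, 2.25 and 2.84 in shNC+ATRA and 7.11 and 9.69 in shKDM3B+ATRA. Its treated knockdown lay above the untreated control in both libraries. TMEM99, listed in GENCODE v44 as KRT10-AS1, was at 2.25 to 3.18 CPM in the controls and 4.27 to 7.17 CPM in the knockdown. YPEL2, of the Yippee family of small conserved proteins, was at 6.71 to 11.1 and 12.1 to 19.5 CPM. ILDR2, an immunoglobulin-like receptor, and TRGJP1, a joining segment of 60 bases in the T-cell receptor gamma locus, were at most 1.12 CPM in the controls and at most 2.52 CPM in the knockdown. The 7 markers of lymphoid cells summed to 40.2 to 52.5 CPM in shNC, 23.6 to 28.7 in shKDM3B, 53.3 to 69.3 in shNC+ATRA and 27.9 to 38.1 in shKDM3B+ATRA, lower in the knockdown without overlap under both treatments. They were led by NKG7, a granule protein of cytotoxic cells (log2 fold change -0.89, SE 0.22, without and -1.12, SE 0.34, with ATRA), while MS4A1 and CD8A were at 0 in every library, and their part in the results was not tested.

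**Figure D3:**
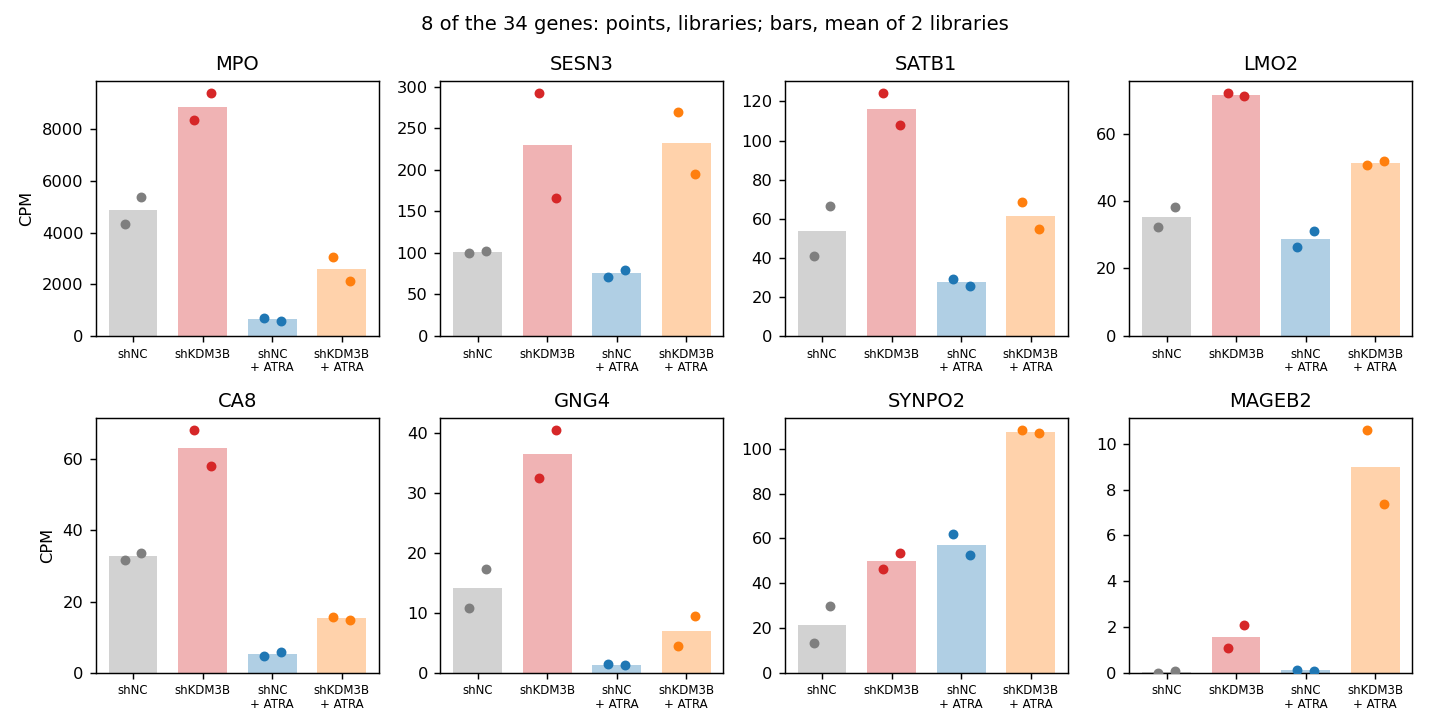
CPM of 8 members in the 4 groups on linear axes from 0, with points for the libraries and bars for the mean of 2. MPO, CA8 and GNG4 are low in both ATRA groups, SESN3 and LMO2 are higher in shKDM3B than in any control library under both treatments, and SYNPO2 and MAGEB2 are highest in shKDM3B+ATRA.

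The response to ATRA was tested in each cell line with edgeR's quasi-likelihood test, calling a gene at a Benjamini-Hochberg adjusted p under 0.05 and a fold change of at least 1.5. These fits use the libraries in which the members were chosen, although not the contrast. The untreated libraries list 56470 gene names and the treated ones 56609, of which the 37526 names in all 8 were used. This difference in lists coincides with ATRA in both cell lines, also for shNC+ATRA replicate 1, and its effect was not tested. In the shNC cells, 32 members were tested, MAGEB2 and PCDHGA6 having too few counts. Of these 32, 1 rose (7.84% of all 12429 genes tested rose) and 5 fell (5.06% fell). With shNC replicate 1 or shNC replicate 2 left out, 0 members and 0 of all genes were called in edgeR, so that all 6 calls were lost, while the log2 fold changes over 11 refits ran from -2.99 to -2.65 for MPO, -2.75 to -2.36 for CA8, -3.61 to -2.92 for GNG4, -2.96 to -2.57 for CHST4, -4.54 to -3.96 for HDAC9 and 1.02 to 2.24 for SYNPO2. The median log2 fold change of the members was -0.38, against 0.02 over all genes, with 21 negative and 11 positive (51.3% of all genes were positive).

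SYNPO2 rose in the shNC cells by 1.53 on the log2 scale (SE 0.38, adjusted p = 0.0418 by edgeR). It was 2.88 times the untreated mean in replicate 1, the library with few reads assigned to no gene. MPO fell by 2.81 (SE 0.21, adjusted p = 4.16e-04), with replicate 1 at 0.145 times the untreated mean. CA8 fell by 2.53 (SE 0.28, adjusted p = 0.00176), with replicate 1 at 0.141 times. GNG4 fell by 3.28 (SE 0.41, adjusted p = 0.00273) and CHST4 by 2.76 (SE 0.50, adjusted p = 0.0125), with replicate 1 at 0.0968 and 0.132 times. HDAC9 fell from 35 and 33 counts to 1 in each library (adjusted p = 0.0109), a pooled ratio of 22.3 (95% exact interval 5.95 to 188). At an unadjusted P-value under 0.05 1 member was higher (15% of all genes) and 11 were lower by at least 1.5 times (10.8%), the further 6 being ADD2, FGFR4, HMGA2, HSPA4L, LDLRAD3 and SATB1.

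In the shKDM3B cells all 34 members were tested. Of them 3 rose (23% of all 12756 genes rose) and 10 fell (17.3% fell). The median was -0.31, against 0.04 over all genes, with 21 negative and 13 positive (52.5% of all genes were positive). The 5 genes that fell in the shNC cells also fell here, MPO by 1.69 (SE 0.16, adjusted p = 3.11e-05), CA8 by 1.96 (SE 0.16, adjusted p = 9.91e-06), GNG4 by 2.31 (SE 0.30, adjusted p = 2.1e-04), CHST4 by 1.95 (SE 0.30, adjusted p = 5.84e-04) and HDAC9 by 1.46 (SE 0.37, adjusted p = 0.00893). FGFR4 fell by 2.41 (SE 0.31, adjusted p = 1.82e-04), LDLRAD3 by 1.18 (SE 0.19, adjusted p = 7.13e-04) and HMGA2 by 1.17 (SE 0.27, adjusted p = 0.00528). SATB1 fell by 0.83 (SE 0.15, adjusted p = 0.00134) and TMEM150A by 0.77 (SE 0.24, adjusted p = 0.0261). SYNPO2 rose by 1.20 (SE 0.14, adjusted p = 8.58e-05), MAGEB2 by 2.56 (SE 0.37, adjusted p = 4.28e-04) and TMEM99 by 0.71 (SE 0.27, adjusted p = 0.0494). Of 11 refits with another setting or a library left out, the call was lost in 9 for TMEM99, in 2 for TMEM150A and in 1 for HDAC9. LMO2, PAM, YPEL2 and IRAK3 had an adjusted p of 0.0314, 0.0343, 0.0431 and 0.016 with a fold change under 1.5. All treated knockdown libraries had 51.0% or more of their uniquely aligned reads assigned to no gene, and all untreated ones few. The treatment and the read split thus cannot be told apart here.

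**Figure D4:**
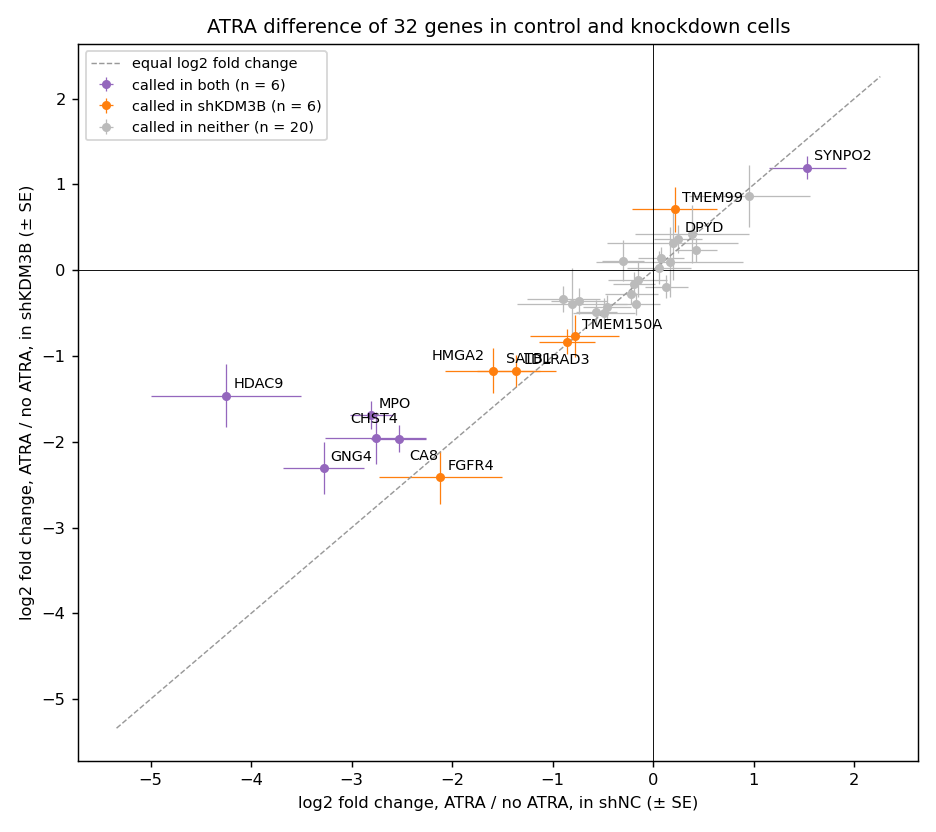
Fitted log2 fold change with ATRA in shNC cells (horizontal) and in shKDM3B cells (vertical) for the 32 members tested in both, with standard errors; purple points passed the test in both, orange points in shKDM3B cells only, gray points in neither, and the dashed line marks equal values. MPO, CA8, GNG4, CHST4 and HDAC9 lie at the lower left, above the dashed line, and SYNPO2 at the upper right.

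Of the 34 members, 20 were tested in both ATRA comparisons and called in neither. Among them were LMO2, IRAK3, ROCK2, PXK, ERLIN1, MAN2A1, GFPT1, SESN3 and DPYD. PCDHGA6 was tested in shKDM3B only and not called. Most of all genes were also uncalled, as 7.84% rose and 5.06% fell in shNC and 23% and 17.3% in shKDM3B. The share of all genes called in neither was not counted, so nothing is read from this number. Set against the untreated control, the treated knockdown was higher in both libraries for 24 members (32.3% of the 10436 names over the CPM minimum), overlapped for CHST4, FGFR4, HMGA2, SATB1 and ZNF850, and was lower for CA8, GNG4, HDAC9, LDLRAD3 and MPO (42.7%). As the rule asked for higher levels in the knockdown under each treatment, nothing is read from these counts about the set. The fitted knockdown log2 fold change was larger with ATRA than without by 2.70 for HDAC9, 1.28 for MAGEB2, 1.10 for MPO, 0.95 for GNG4 and 0.79 for CHST4, the 5 widest of the 23 members with a larger value. The values of HDAC9 and MAGEB2 rest on 1 or 2 counts in each treated control library. For 11 members the fitted value was smaller with ATRA, with the lowest difference at -0.35 for SYNPO2. These differences share all their libraries with the tests above and were not tested themselves.

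Within the related lists, the azurophil granule genes other than MPO moved with ATRA in both directions, 4 of 14 rising and 6 falling in shNC (7.84% and 5.06% of all genes) and 4 of 13 rising and 6 falling in shKDM3B (23% and 17.3%), with medians of -0.20 and -0.03. CTSG fell by 5.04 (SE 0.33, adjusted p = 2.57e-04) in shNC and fell by 6.16 (SE 0.21, adjusted p = 4.9e-08) in shKDM3B by edgeR. In the class IIa deacetylase list, HDAC9 fell in both cell lines, and in shKDM3B HDAC4, HDAC5, HDAC7 and MEF2D also fell and MEF2C rose. The log2 fold changes in shNC and shKDM3B were -0.53 and -0.62 for HDAC5, -0.67 and -0.76 for HDAC7, -0.80 and -1.01 for MEF2D and -0.23 and -0.66 for HDAC4, and the difference between the lines was not tested. In the Golgi list without its 3 members, 4 of 34 genes rose and 4 fell in shNC, and 5 of 33 rose and 7 fell in shKDM3B, with CHST11, HS6ST1, B4GALT2 and FUT7 falling in both.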

How the data were processed

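For these RNA-seq libraries the authors used Trim Galore for trimming, HISAT2 for alignment to hg38 and HTSeq for gene counting, and deposited raw whole-number counts per gene. The labels also list Picard and SAMtools, and versions are not given in the sources used here. The untreated files list 56470 names and the treated ones 56609, a difference that coincides with the treatment. The 37526 names in all 8 were used for the set and for the ATRA fits. CPM was the count times 1000000 over the sum of all gene rows, and HTSeq's summary rows were left out.

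Each pair of groups was fitted alone with edgeR 4.0.16 in R 4.3.3 (filterByExpr, TMM scaling, quasi-likelihood F test, Benjamini-Hochberg adjustment). Alternatives were DESeq2 1.42.0, other scalings and low-count filters, the replicate block, all 8 libraries in one fit and each library left out. One alternative, the members without opposite-strand exons, was chosen after seeing the data. The procedure was tested on simulated data. Positions, lengths and exon overlaps came from GENCODE v44 and promoter windows from RefSeq.

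The members, the 24 gene lists and the grouping by role were chosen with earlier results of these data known. Of the 12 lists that hold a member, all but 2, not reported here, are described. Genes named were KDM3B, members in a list, the 10 members with the widest margin and the 10 with the highest CPM, those next to the threshold, and the 5 strongest rises and falls with ATRA. ACTL8, ADD2, HSPA4L, PAM, PCDHGB2, SIX4, TRGJP1 and ZNF850 fall outside this rule and are named because they complete the set. Exact intervals are 95% and cover counting error only. With 2 libraries per group the smallest two-sided p of an exact permutation test is 0.333, so none was used.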

Additional observations from a re-analysis of the deposited data

How the results depend on the processing

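The set held 34 genes as defined, 36 with TMM scaling (without GFPT1) or DESeq2 size factors, 33 with upper-quartile scaling (without MPO and SYNPO2), 24 with a minimum of 2 CPM and 25 without genes that overlap opposite-strand exons, but 4 with a fold limit of 2 and 77 without a CPM minimum. Leaving out 1 library gave 38 to 78 genes, with 69 without shNC replicate 2, 78 without shKDM3B replicate 2 and 54 without shNC+ATRA replicate 1.

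As the rule chose the members on the knockdown difference, nothing is read from their calls in it. Members higher in the knockdown by an adjusted test numbered 0 in edgeR as reported. Without ATRA there were 28 with no low-count filter (1.24% of all genes), 26 with DESeq2 (1.13%), 34 at an unadjusted P-value (3.48%) and 16 to 25 with 1 library left out (0.675% to 2.66%), each of the 4 libraries raising the count. With ATRA there were 17 with DESeq2 (0.861%), 28 at an unadjusted P-value (2.42%) and 0 to 33 with 1 library left out, 29 without shNC+ATRA replicate 1 (6.86%) and 33 without replicate 2 (22.3%).

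With ATRA in shNC cells, the 1 member that rose, SYNPO2, was not called with library size alone (0), and the 5 that fell became 10 with all 8 libraries in one fit (7.21% of all genes) and 11 at an unadjusted P-value (10.8%). With 1 library left out, 0 to 1 rose and 0 to 9 fell; 0 rose and 0 fell without shNC replicate 1 or 2, and 9 fell without shNC+ATRA replicate 1 (13.8%) or replicate 2 (7.64%). In shKDM3B cells 2 to 4 rose (13.5% to 24% of all genes) and 9 to 10 fell (12.3% to 18.6%) under the alternatives that kept all libraries. The loss of the TMEM99 call is given above. A lone library left in a group was assumed to vary like the others. The cause of these shifts was not tested.

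With the replicate number as a block, 31 members were higher without ATRA (3.09% of all genes) and 0 with ATRA, and the ATRA counts were as without it. The libraries share only a number: their deviations from the group mean, taken across genes, correlated between equal numbers at 0.389 and 0.026 in the knockdown comparisons and at -0.073 and 0.183 in the ATRA comparisons, over 2 pairs each. Genes near 1 CPM rest on few counts, and their values are the least precise.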
